A study of Mus musculus with 2 samples.

Results

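Paired IAPLTR1a_Mm long terminal repeats (LTRs) are the subject here: 628 LTRs, in 314 pairs, each pair a candidate provirus of the intracisternal A particle (IAP) family. The pairs were formed by name and position alone, with no measured level used. That these members became the subject was decided with earlier results of these data known. All 4799 IAP LTR loci were sorted by chromosome and start, and loci next to each other in that order formed a pair when they shared subfamily and strand and had 1000 to 8000 bp between them, working left to right with each locus used in 1 pair at most. Pairing gave 906 pairs over all subfamilies, and it placed 628 of the 1234 IAPLTR1a_Mm loci (50.9%) in pairs. The member upstream by strand is called the 5′ LTR and the other the 3′ LTR. Whether IAP sequence lies between them was not read, so a pair is a candidate and not an established provirus.

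The series holds 2 libraries, 1 from each of 2 mouse cell lines. AB2.2 cells are embryonic stem (ES) cells derived from strain 129, and Neuro2A cells come from a brain neuroblastoma, with strain A albino given; no treatment is named for either. Sonicated genomic DNA was joined to an adaptor and treated with bisulfite, which leaves methylated cytosine as C while cytosine without the mark is read as T, and PCR then enriched junctions of IAP LTRs with genomic sequence. The deposited value is 1 methylation level per LTR, given here in percent, and carries no number of reads, so its depth and counting error are unknown. Every one of the 628 LTRs had a level in each library and none was at exactly 0. There is no replicate of either line: all values describe these libraries, SDs are over loci, and no p-value is given.

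IAPs are mouse endogenous retroviruses that copy themselves through RNA. Reverse transcription writes the same LTR at both ends of a new copy, so the LTRs of a provirus start out alike and then diverge by mutation. The 5′ LTR holds the promoter from which the element is transcribed, and the 3′ LTR holds the signal that ends the transcript and, in the same letters, a promoter that faces the flanking genome. IAP LTRs are commonly silenced by CpG methylation, and many IAP copies have lost part of their internal coding sequence. A deletion of that kind brings the LTRs closer together, which is why the gap within a pair is set beside the levels.

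Gap sizes fell into a few narrow groups. The gap ran from 1006 to 7836 bp with a median of 5899.5 bp. Of the 314 pairs, 134 (42.7%) lay from 6300 to under 6600 bp apart and 23 (7.32%) from 5800 to under 6000 bp apart. A broader group of 91 pairs (29.0%) lay from 3300 to under 4000 bp apart, and 25 from 4000 to under 4400 bp apart. Gaps under 3000 bp occurred in 7 pairs and gaps of 6600 bp or more in 3. By the classes used here, 162 pairs were long (5500 to 8000 bp), 52 middle (4000 to under 5500 bp) and 100 short (1000 to under 4000 bp). The limits of the narrower groups were read from this distribution.

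**Figure D1:**
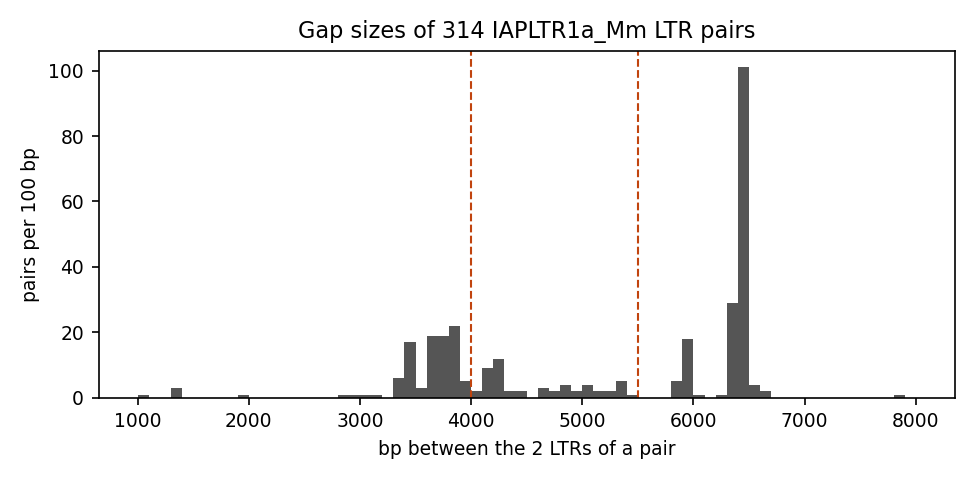
Number of IAPLTR1a_Mm LTR pairs (y axis) per 100 bp of gap between the LTRs (x axis, bp), with dashed lines at the class limits of 4000 and 5500 bp. The tallest group is that of the 134 pairs from 6300 to under 6600 bp, and the next is the broader group of 91 pairs from 3300 to under 4000 bp.

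The LTRs of a pair were mostly of one length. Median length was 337 bp at either end, 419 of the 628 LTRs (66.7%) were 336 to 345 bp long, and the LTRs of a pair had equal lengths in 265 of 314 pairs (84.4%) and lay within 2 bp of each other in 290. The shortest member was a 3′ LTR of 81 bp. Pairs lay on the minus strand in 169 cases (53.8%), against 51.1% of all 4799 loci. The X, with its unplaced sequence, held 37 pairs (11.8%), chromosome 1 held 23 and chromosome 19 held 7.

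Both ends were highly methylated in ES cells, with the 3′ LTR slightly above the 5′ LTR. The ES level of the 314 5′ LTRs ran from 72.5 to 98.6% with a median of 88.7% (mean 88.4%, SD over loci 4.11). At the 3′ LTRs it ran from 70.8 to 95.5% with a median of 91.65% (mean 90.6%, SD 3.24). The ranges overlap almost entirely, and all but 12 of the 5′ and 4 of the 3′ LTRs were at 80% or above. A level of 90% or above was found at 124 of the 5′ LTRs (39.5%) and 218 of the 3′ LTRs (69.4%).

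In Neuro2A cells the ends differed mainly in spread. The 5′ LTRs ran from 0.9 to 99.3% with a median of 83.25% (mean 79.9%, SD over loci 17.2), and the 3′ LTRs ran from 60.5 to 94.3% with a median of 86.8% (mean 85.1%, SD 5.29). The interquartile range was 74.7 to 92.0% at the 5′ end and 82.7 to 88.7% at the 3′ end. The 5′ LTRs thus lay beyond the 3′ LTRs on either side. Below 60% there were 32 5′ LTRs (10.2%) and no 3′ LTR, against 15.5% of all 4799 loci. At 95% or above there were 44 5′ LTRs (14.01%) and no 3′ LTR, against 4.88% of all loci. The SD at the 5′ end was larger than at the 3′ end in each library, by far the more so in Neuro2A cells. How reads that fit several near-identical LTRs were placed is not given in the sources used here. Whether such placement bears on the narrower spread at the 3′ end was not tested.

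**Figure D2:**
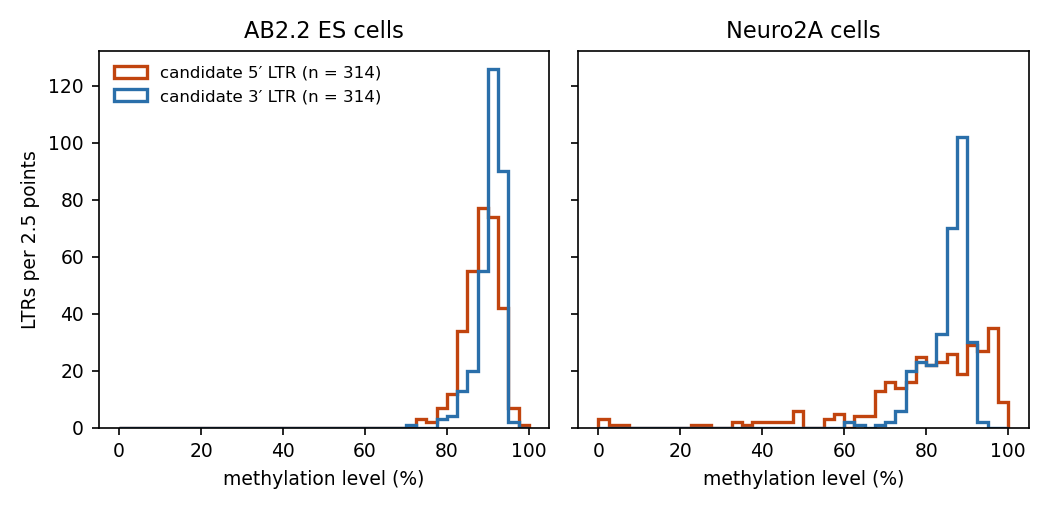
Number of LTRs (y axis, per 2.5 percentage points) at each methylation level (x axis, percent) for the 314 candidate 5′ LTRs and the 314 candidate 3′ LTRs, in ES cells on the left and Neuro2A cells on the right. In Neuro2A cells the 3′ LTRs stay between 60.5 and 94.3%, while the 5′ LTRs run from 0.9 to 99.3%.

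The pairs nearest to all 4 medians show what a common member looked like. A chromosome 14 pair, with its 5′ LTR at chr14:114609672-114610009 and its 3′ LTR at chr14:114602850-114603187 (minus strand, gap 6484 bp), had ES levels of 88.4% and 89.8% and Neuro2A levels of 83.2% and 86.5%. On chromosome 8 the 5′ LTR at chr8:103141653-103141988 (plus strand, gap 3378 bp) and its partner had ES levels of 88.5% and 92.1%, then 82.5% and 88.4% in Neuro2A cells. On chromosome 2 the LTR at chr2:82179202-82179519 (minus strand, gap 3396 bp) and its 3′ partner had 90% and 92.2%, then 82.9% and 88.3%. All coordinates are on mouse build mm9. No mm9 annotation was used, so whether a locus lies in a gene is not given.

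Within pairs, the 5′ LTR was the lower end in ES cells in 217 of 314 pairs (69.1%), the higher in 94 and equal in 3. The median of 5′ minus 3′ was -2.35 percentage points (SD over pairs 5.07). A difference of 20 points or more was rare: the 5′ LTR was never lower by that much and was higher by that much in 1 pair. Over all 906 pairs of the library, 1.55% had the 5′ LTR lower by 20 points or more and 2.65% had it higher. The median of 5′ minus 3′ was -0.65 points over those 906 pairs, -2.0 in IAPLTR1_Mm and 2.4 in IAPLTR2_Mm pairs. How many of all pairs had the 5′ LTR lower by any amount was not counted.

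In Neuro2A cells the 5′ LTR was the lower end in 178 pairs (56.7%) and the higher in 136. The median of 5′ minus 3′ was -1.6 points, the mean -5.17 points and the SD over pairs 16.8, so the mean was pulled down by a tail of low 5′ LTRs. The 5′ LTR was lower by 20 points or more in 38 pairs (12.1%), near the 14.5% found over all 906 pairs. It was higher by as much in 4 pairs (1.27%), against 6.95% over all pairs. That share varied by subfamily, at 2 of 181 IAPLTR1_Mm pairs (1.1%) and 29 of 215 IAPLTR2_Mm pairs (13.5%). The 5′ LTR was lower by as much in 30 (16.6%) and 41 (19.1%) of these. The median of 5′ minus 3′ was -2.8 points in IAPLTR1_Mm pairs, 2.9 in IAPLTR2_Mm pairs and 0.15 over all 906 pairs. Among the IAPLTR1a_Mm pairs, those with the 5′ LTR lower in both lines numbered 128 and those with it higher in both 46. The direction turned between the lines in 89 of them one way and 48 the other.

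**Figure D3:**
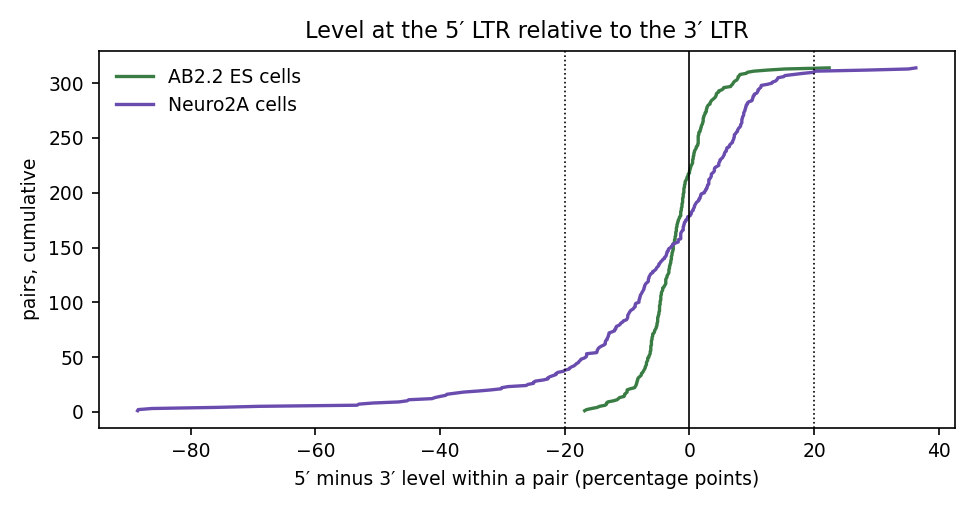
Cumulative number of IAPLTR1a_Mm pairs (y axis, of 314) by the 5′ minus 3′ difference in level (x axis, percentage points), for ES and Neuro2A cells, with dotted lines at -20 and 20 points. The Neuro2A curve has a long left tail of 38 pairs at or under -20 points, where the ES curve has none.

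The pairs with the 5′ LTR furthest below the 3′ LTR in Neuro2A cells kept a high 3′ LTR there and had both ends high in ES cells. The chromosome 11 pair (5′ LTR chr11:106158561-106158897, 3′ LTR chr11:106154026-106154362, minus strand, gap 4198 bp) had 88.7% and 93.3% in ES cells, and 0.9% at the 5′ against 89.4% at the 3′ LTR in Neuro2A cells. Each LTR of this pair is 337 bp long. On chromosome 12 the 5′ LTR chr12:66134957-66135294 and its 3′ LTR chr12:66128173-66128510 (gap 6446 bp) had ES levels of 88.7% and 93.8% and Neuro2A levels of 1.5% and 89.9%. The other chromosome 12 pair, with 5′ LTR chr12:86748791-86749127 and 3′ LTR chr12:86741996-86742332 (gap 6458 bp), had 90.4% and 92.8%, then 1.6% and 87.8%. In these 3 pairs the 5′ LTR was almost free of methylation in Neuro2A cells, while its partner a few kilobases away stood at the usual 3′ level.

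A chromosome 16 pair (5′ LTR chr16:20579805-20580163, 3′ LTR chr16:20572948-20573303, minus strand, gap 6501 bp) joined opposite extremes. Its 5′ LTR had the highest ES level of all members, 98.6%, and 4.0% in Neuro2A cells, with 83.3% and 80% at the 3′ LTR. On chromosome 1, the pair of chr1:37340118-37340474 and chr1:37335651-37336010 (minus strand, gap 4107 bp) had ES levels of 86.1% and 78.3% and Neuro2A levels of 6.4% and 75.3%. These 2 pairs have longer LTRs, of 356 to 360 bp. Together with the chromosome 11 and 12 pairs they are the 5 whose 5′ LTR was under 20% in Neuro2A cells, and all 5 lie on the minus strand with a gap of 4000 bp or more.

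The next pairs in the order had intermediate 5′ levels in Neuro2A cells. A chromosome 15 pair (5′ LTR chr15:46333843-46334176, plus strand, gap 3708 bp) had 90.5% in ES and 26.4% in Neuro2A cells at the 5′ LTR, with 87.7% and 79.7% at the 3′ LTR. An X pair (chrX:94378307-94378640, plus strand, gap 3695 bp) had 78.4% and 23.6% at the 5′ LTR against 86.2% and 76.6% at its partner. A second chromosome 1 pair (chr1:151428647-151428985, plus strand, gap 6462 bp) had 85.2% and 35.2% at the 5′ LTR and 91.4% and 86.0% at the 3′ LTR.

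In all, 12 of the 314 5′ LTRs (3.82%) were under 40% in Neuro2A cells, and no 3′ LTR was; over all 4799 loci the share under 40% was 4.56%. In ES cells those 12 5′ LTRs had 72.5 to 98.6%, with a median of 86.0%, and 10 of them were at 80% or above. Their 3′ partners had 73.2 to 89.9% in Neuro2A cells, with a median of 79.85%. Of the 12, 9 lay on the minus strand and 5 had a short gap. Among all 53 pairs of any subfamily with a 5′ LTR under 40%, 27 lay on the minus strand.

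The reverse order, a 3′ LTR well under its 5′ partner, was found in few pairs. On chromosome 14 the 5′ LTR chr14:117482420-117482753 had 96.8% in Neuro2A cells and its 3′ LTR chr14:117478199-117478532 had 60.5% (minus strand, gap 3887 bp). The same pair had 93.2% and 70.8% in ES cells, the lowest ES level of any 3′ LTR and the largest 5′ excess there, 22.4 points. On chromosome 5 the 5′ LTR chr5:38866893-38867226 (minus strand, gap 3857 bp) had 95.7% and its 3′ LTR 60.6% in Neuro2A cells, after 83.4% and 84.1% in ES cells. The chromosome 14 pair had a low 3′ LTR in both lines, and the chromosome 5 pair in Neuro2A cells alone.

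A further chromosome 14 pair (5′ LTR chr14:75825130-75825466, plus strand, gap 5297 bp) had 96.5% at the 5′ and 68.0% at the 3′ LTR in Neuro2A cells; its ES levels were 90.3% and 87.4%. An X pair (chrX:33459197-33459529, minus strand, gap 3851 bp) had 97.9% and 77.8% in Neuro2A cells and 83.8% and 84.7% in ES cells. A plus-strand chromosome 5 pair (chr5:136631549-136631883, gap 3862 bp) had 95.8% and 75.9% in Neuro2A cells and 83.9% and 86.7% in ES cells. In 4 of these 5 pairs the 3′ LTR was thus the lower end by 20 points or more in Neuro2A cells, and in the other by 19.9 points.

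The pairs with the lowest 5′ LTR relative to the 3′ LTR in ES cells did not all stay so in Neuro2A cells. On chromosome 12 the 5′ LTR chr12:80669628-80669964 (minus strand, gap 6449 bp) had 73.9% against 90.7% at its partner in ES cells, and 91.9% against 81.0% in Neuro2A cells. The X pair at chrX:20651229-20651566 (minus strand, gap 3855 bp) likewise went from 76.5% against 92.2% to 93.0% against 88.3%. A chromosome 4 pair (5′ LTR chr4:5074227-5074560, minus strand, gap 3548 bp) had 72.5% against 89.0% in ES cells, the lowest ES level of any 5′ LTR, and 33.1% against 78.1% in Neuro2A cells. On the other side, a chromosome 5 pair (chr5:79448803-79449157, plus strand, gap 4113 bp) had 93.8% against 81.3% in ES cells and 78.7% against 76.9% in Neuro2A cells.

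Between the lines, the 2 ends had close median differences and unlike tails. ES minus Neuro2A had a median of 5.2 points at the 5′ LTRs and 4.8 points at the 3′ LTRs, which became -0.9 and -1.3 points when each library was centred on its median over all loci, a shift of 6.1 points. At the 5′ end the ES level was the higher in 212 pairs and the Neuro2A level in 102 (32.5%). At the 3′ end these numbers were 298 and 16 (5.10%). The Neuro2A level was the higher at 882 of all 4799 loci (18.4%) and at 65 of 606 unpaired IAPLTR1a_Mm loci (10.7%). These counts are for levels as deposited, without centring. The SD of the difference over loci was 16.8 points at the 5′ and 4.10 points at the 3′ end.

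An ES excess of 20 points or more was found at 49 5′ LTRs (15.6%) and 2 3′ LTRs (0.637%), against 14.9% of all 4799 loci. In the 181 IAPLTR1_Mm pairs it was found at 36 5′ LTRs (19.9%) and 0 3′ LTRs. In the 215 IAPLTR2_Mm pairs it was found at 81 (37.7%) and 39 (18.1%). No paired IAPLTR1a_Mm LTR was higher in Neuro2A cells by as much, against 1.58% of all loci. After centring, 4 of the 5′ LTRs were, and the 5′ LTRs with an ES excess of 20 points or more went from 49 to 33. The share over all loci was not recomputed after centring. The 2 3′ LTRs with an ES excess of 20 points or more were those of the chromosome 5 pair at chr5:38862702-38863035, with 84.1% in ES and 60.6% in Neuro2A cells, and of a chromosome 17 pair (3′ LTR chr17:66876434-66876766, minus strand, gap 3859 bp). The latter had an ES level of 87.7% and a Neuro2A level of 63.3%, and its 5′ LTR had 81.5% and 45.8%. Next came the 3′ LTR of the chromosome 14 pair at chr14:75830764-75831100, with 87.4% and 68.0%. With the centred levels, neither of the 2 reached 20 points.

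Levels of one end were more alike between the lines at the 3′ than at the 5′ LTR. Across the 314 pairs, ES and Neuro2A levels had a Pearson's r of 0.63 and a Spearman's rho of 0.50 at the 3′ LTRs, and 0.21 and 0.19 at the 5′ LTRs. The levels of the LTRs within a pair were nearly unrelated in ES cells, with r of 0.06, and weakly related in Neuro2A cells, with r of 0.23. These coefficients describe loci that share a library and an LTR sequence family, and loci are not independent replicates. How reads that fit several near-identical LTRs were placed is not given in the sources used here, so how far each level comes from its own LTR alone was not tested.

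**Figure D4:**
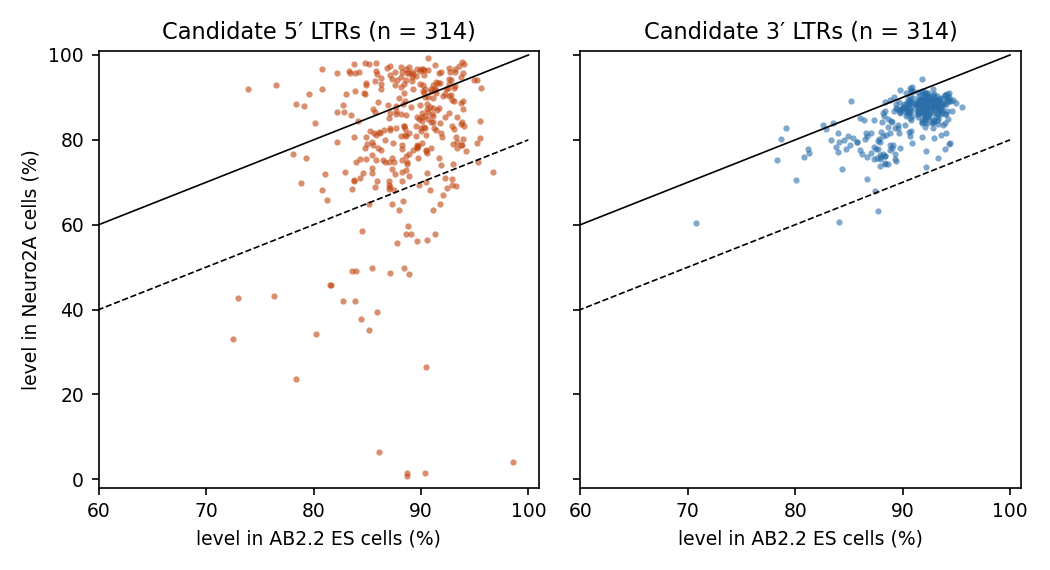
Level in Neuro2A cells (y axis, percent) against level in ES cells (x axis, percent, shown from 60) for the 314 candidate 5′ LTRs on the left and the 314 candidate 3′ LTRs on the right, 1 point per LTR. The solid line marks equal levels and the dashed line an ES excess of 20 points, under or on which lie 49 of the 5′ and 2 of the 3′ LTRs (the counts are for levels as deposited).

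Levels were then compared across gap classes. Pairs with a short gap were lower in Neuro2A cells at both ends, and the 3′ LTR was also lower in ES cells. At the 3′ LTRs the Neuro2A median was 82.25% in the 100 short pairs (SD over loci 6.67), 87.5% in the 52 middle pairs (4.50) and 87.35% in the 162 long pairs (3.57). At the 5′ LTRs it was 80.9% (SD 17.8), 83.15% (20.6) and 85.45% (15.0). In ES cells the 3′ medians were 89.8, 91.95 and 91.8%, and the 5′ medians 88.25, 89.05 and 88.9%. The middle and long classes were close to each other at the 3′ end in both lines, and the ranges of all classes overlapped.

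Shares of low levels fell from the short to the long class. A 3′ LTR under 80% in Neuro2A cells was found in 39 of 100 short, 5 of 52 middle and 11 of 162 long pairs (39.0, 9.62 and 6.79%). The Neuro2A median was 80.6% over all 4799 loci and 79.95% at the 3′ LTRs of all 906 pairs, so a level under 80% was common in the library. A 5′ LTR under 60% was found in 20 short, 6 middle and 6 long pairs (20, 11.5 and 3.70%), against 15.5% of all loci. The 5′ LTR was higher in ES cells by 20 points or more in 27 short (27.0%), 8 middle (15.4%) and 14 long pairs (8.64%). The very low 5′ LTRs did not follow this order, since the 5 under 20% all belonged to middle or long pairs, and a 5′ LTR at 95% or above was found in 12 short, 6 middle and 26 long pairs. Across pairs the relation of gap and level was weak, with a Spearman's rho of 0.22 for the Neuro2A level at the 3′ LTR, 0.13 at the 5′ LTR and 0.06 for the 5′ minus 3′ difference.

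Within the short class low levels were more frequent in 1 range of gaps, though not limited to it. A 3′ LTR under 80% in Neuro2A cells was found in 34 of the 68 pairs from 3500 to under 4000 bp apart and in 5 of the other 32, and a 5′ LTR under 60% in 18 and 2. The 23 pairs from 3300 to under 3500 bp apart had Neuro2A medians of 82.9% at the 5′ and 86.4% at the 3′ LTR, while the 68 pairs from 3500 to under 4000 bp apart had 75.35% and 79.9%. The 5 pairs with the shortest gaps, 1006 to 1953 bp, had medians of 88.2% at each end, and with classes divided at 3000 and 6000 bp the 7 pairs under 3000 bp had 87.2 and 88.2%. The shortest of these, on the X (5′ LTR chrX:22420371-22420706, gap 1006 bp), had ES levels of 86.9% and 93.8% and Neuro2A levels of 88.2% and 83.5%. Pairs on chromosome 1 (5′ LTR chr1:143270278-143270614, gap 1351 bp) and chromosome 16 (chr16:87374405-87374742, gap 1377 bp) had 76.4% and 89.4%, and 89.1% and 92.5%, in Neuro2A cells; their ES levels were 85.4% and 92.3%, and 93.1% and 90.9%.

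At the other extreme, the widest pair (5′ LTR chr1:99069314-99069616, gap 7836 bp) had ES levels of 85.5% and 88.8% and Neuro2A levels of 78.8% and 89.5%. A chromosome 4 pair (chr4:145478644-145478998, gap 6622 bp) had 83.8% and 87.1%, then 70.4% and 81.5%. A chromosome 2 pair (chr2:19282765-19283098, gap 6605 bp) had 85.5% and 91.8%, then 87.2% and 80.7%. None of these 6 pairs is among those with the largest differences between ends or lines.

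LTR length moved with the gap. Pairs with both LTRs 332 to 335 bp long numbered 40, and 31 of these had a short gap, 28 of them from 3500 to under 4000 bp. Both LTRs were 336 to 345 bp long in 197 pairs. Among short pairs, the 31 with LTRs of 332 to 335 bp had Neuro2A medians of 68.4% at the 5′ (SD over loci 21.5) and 77.7% at the 3′ LTR (5.92), and the 43 with LTRs of 336 to 345 bp had 86.5% (12.6) and 87.0% (4.31). The latter matched the 115 long pairs of the same LTR length, which had 85.9% and 87.7%, to within 1 point. In the few longer pairs with LTRs of 332 to 335 bp the levels were mixed, at 87.2% and 87.9% in 7 long pairs and 56.7% and 79.95% in 2 middle pairs. The length classes were chosen after the levels were seen, and which of gap, LTR length or another feature of these copies goes with the lower level was not tested.

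The same classes differed in ES cells, by less. Short pairs with LTRs of 332 to 335 bp had ES medians of 85.2% at the 5′ and 87.9% at the 3′ LTR, against 90% and 91.8% in short pairs with LTRs of 336 to 345 bp. Over all gaps, a 3′ LTR under 80% in Neuro2A cells was found in 26 of 40 pairs (65.0%) with LTRs of 332 to 335 bp and in 8 of 197 (4.06%) with LTRs of 336 to 345 bp. A 5′ LTR under 60% was found in 14 (35.0%) and 9 (4.57%), against 15.5% of all loci. The share of 5′ LTRs at 95% or above was alike, at 15.0 and 15.7%. At the 3′ LTRs of all 906 pairs the Neuro2A median was 79.95%, so a level under 80% was common there. Among the 606 unpaired IAPLTR1a_Mm loci, which entered none of these counts, the 70 of 332 to 335 bp had medians of 87.75% in ES and 78.9% in Neuro2A cells, and the 315 of 336 to 345 bp had 91.3 and 86.7%. These loci come from the same libraries and were divided at the same limits, set after levels were seen, so they are no independent check.

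**Figure D5:**
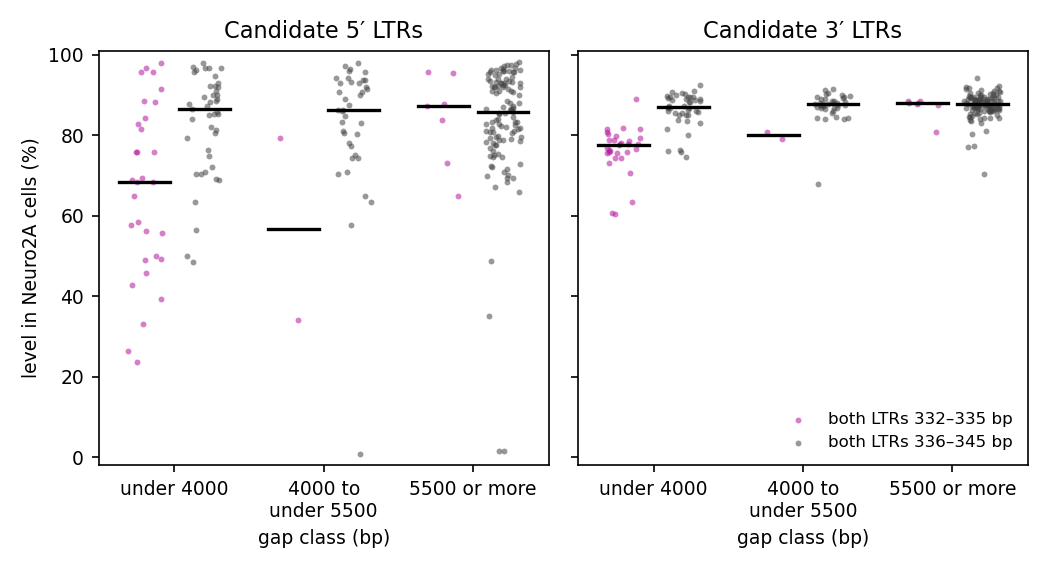
Level in Neuro2A cells (y axis, percent) by gap class (x axis, bp) for candidate 5′ LTRs on the left and 3′ LTRs on the right, 1 point per LTR, shown for pairs with both LTRs 332 to 335 bp long or both 336 to 345 bp long; black bars are medians and sideways scatter is random. In the short class the 31 pairs with the shorter LTRs have medians of 68.4 and 77.7%, and the 43 pairs with LTRs of 336 to 345 bp have 86.5 and 87.0%.

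Longer LTRs showed another order of the ends. In the 34 pairs with both LTRs over 345 bp, the 5′ LTR was the higher end in ES cells in 22 (64.7%), against 46 of 197 pairs (23.4%) with LTRs of 336 to 345 bp. Their ES medians were 89.95% at the 5′ and 87.2% at the 3′ LTR, against 88.9 and 92.0%. In Neuro2A cells they had 78.9 and 82.75%, against 86.4 and 87.6%. Of these 34 pairs, 28 had a middle or long gap. A 3′ LTR under 80% in Neuro2A cells was found in 7 of those 28 and in 4 of the 6 with a short gap. In the 14 pairs with both LTRs under 332 bp the ES medians were 90.15 and 89.3% and the Neuro2A medians 78.85 and 79.25%.

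The wider spread at the 5′ end was also present in other paired subfamilies. The 181 IAPLTR1_Mm pairs had Neuro2A SDs over loci of 21.9 at the 5′ and 4.72 at the 3′ LTR, and the 215 IAPLTR2_Mm pairs had 20.01 and 10.5. Medians in Neuro2A cells were 82.8 and 87.0% for IAPLTR1_Mm pairs, close to those of IAPLTR1a_Mm, and 73.3 and 70.7% for IAPLTR2_Mm pairs. Gap sizes differed, with 16 of 181 IAPLTR1_Mm pairs and 202 of 215 IAPLTR2_Mm pairs in the short class. The 16 short IAPLTR1_Mm pairs had Neuro2A medians of 82.2 and 86.8%, and the 100 long ones 83.65 and 87.0%. With 1 library a line these contrasts have no test, and none of these values is shown to be particular to IAPLTR1a_Mm.

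Unpaired IAPLTR1a_Mm loci had few levels as low or as high as those of paired 5′ LTRs. Their ES median was 89.8% (SD over loci 6.59) and their Neuro2A median 84.95% (11.1). In Neuro2A cells 9 of 606 (1.49%) were under 40%, against 12 of 314 paired 5′ and 0 of 314 paired 3′ LTRs, and 2 of 606 (0.330%) were at 95% or above, against 44 paired 5′ and 0 paired 3′ LTRs. ES levels higher by 20 points or more occurred at 16 of them (2.64%).

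On the X, the 37 pairs had lower Neuro2A medians than the other 277, at 79.6 against 83.9% for 5′ and 84.6 against 86.9% for 3′ LTRs. Short gaps were somewhat more frequent there, in 15 of 37 (40.5%) against 85 of 277 pairs (30.7%). Within the long class the Neuro2A medians were 84.55 and 88.05% for 16 X pairs and 85.45 and 87.3% for 146 others, and within the short class 76.7 and 81.1% for 15 X pairs and 82.1 and 83.9% for 85 others. By strand, Neuro2A medians at the 5′ LTR were close, at 83.2% in 145 plus-strand and 83.7% in 169 minus-strand pairs, with SDs over loci of 13.9 and 19.6. The 5 5′ LTRs under 20% all belong to the minus strand, while among the 53 pairs of any subfamily with a 5′ LTR under 40%, 27 do.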

How the data were processed

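Per the file headers, the score that the authors deposited for each LTR is its level of methylation times 1000, on build mm9; it was divided by 10 to give percent. The submitters' processing notes name Bowtie2, with no role. Not given in the sources used here are the caller, the filters and the handling of multiply fitting reads, and incomplete conversion would raise a level. With no read numbers, no coverage minimum or test on reads could be used. Positions come from the locus names, since 1 line of the ES file disagreed with its name, and starts were read as counting from 0 and printed 1-based.

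Pairs, medians, SDs over loci and counts were computed with Python 3.11.15 and pandas 2.3.3. Intervals of 95% over loci, which treat loci as draws, came from scipy 1.17.1 and serve only to judge the recomputed values below. The pairing code was run on simulated loci, with each planted pair far from any other locus. Crowded loci were not simulated, so that run does not bear on whether real pairs are proviruses. Differences of 20 points or more and levels under 40% were counted. Named pairs follow a rule: the 8 with the 5′ LTR lowest against the 3′ LTR in Neuro2A cells and the 5 with it highest, 3 at each extreme in ES cells, the 3 largest line differences at 3′ LTRs, the 3 lowest Neuro2A means (all among the 8), the 3 shortest and 3 longest gaps, and the 3 closest to the medians. The pairing rule used no level, but the choice of these members as the subject, and of the classes, was made with earlier results of these data known. Alternatives covered pairing, LTR length, chromosomes, limits, centring, means and gap classes.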

Additional observations from a re-analysis of the deposited data

How the results depend on the processing

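No paired analysis was possible because the study has 1 library for each line. Of the values recomputed with other choices, 207 moved by less than their interval over loci (counts and SDs by less than 1.5 times), 30 moved further and 2 were reversed. Both reversals came from centring each library on its median, which subtracts 6.1 points by construction: ES minus Neuro2A became -0.9 points at 5′ and -1.3 points at 3′ LTRs, with 4 5′ LTRs higher in Neuro2A cells by 20 points and 0 3′ LTRs higher in ES cells. Taking means gave -5.17 points for 5′ minus 3′ in Neuro2A cells, and 8.44 and 5.52 points for ES minus Neuro2A at 5′ and 3′ LTRs. A limit of 10 points gave 20 pairs with the 5′ LTR lower and 4 with it higher in ES cells, 85 and 31 in Neuro2A cells, 115 5′ and 41 3′ LTRs higher in ES cells and 18 5′ LTRs higher in Neuro2A cells. A limit of 40 points gave 0 pairs with the 5′ LTR higher in either line, 14 with it lower in Neuro2A cells, and 14 5′ and 0 3′ LTRs higher in ES cells. Pairs 4000 to 8000 bp apart (214 pairs, so fewer by construction) held 0 pairs with the 5′ LTR higher by 20 points in ES cells and 1 in Neuro2A cells, 20 with it lower there, 22 5′ and 0 3′ LTRs higher in ES cells, and 7 5′ LTRs under 40%. Limits of 20 and 60% gave 5 and 32 low 5′ LTRs. With gap classes divided at 3000 and 6000 bp, the short class (7 pairs) had ES medians of 90.1% (5′) and 92.4% (3′) and Neuro2A medians of 87.2 and 88.2%, above the other classes in each case, and the middle class had 86.1% at 3′ LTRs in Neuro2A cells. Pairing within subfamily and strand and leaving out loci at 0 gave the same number of pairs, 314. No member was at 0, so leaving out such loci could change nothing. Each of these 2 settings adds 29 values to the 207, which therefore overstates how much was put to the test. Autosomes only, 1 pair per 100 kb, LTRs of 300 bp or more and, chosen after the data were seen, LTR lengths within 2 bp (290 pairs) moved none of these values beyond their limits. Depth is unknown, so single LTRs have no stated precision, and whether each copy is present in strains 129 and A albino was not checked.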
